A study of Mus musculus with 3 samples.

Results

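The 8 genes described here code for receptors by which natural killer (NK) cells read their targets: Ncr1, Klrb1c, Klra4, Klra8, Klra9, Klre1, Klrk1 and Klrd1. They were taken by name as a list of NK receptors, 8 of the 19039 genes measured in the series, and all 8 were present in each of its 3 RNA matrices, which held 17129 genes (naive brain), 18935 (brain with metastases) and 16619 (blood). They were followed through the cells gated or clustered as NK and T cells in each tissue.

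The study asked how microglia, the resident macrophages of the brain, shape the immune cells around brain metastases. CITE-seq measures the RNA of a cell together with antibody tags on its surface, and it was run here on 8 samples that each carried their own hashing antibody and were loaded as 1 pool with 35 surface antibodies. Female C57Bl/6 mice aged 2 to 3 months carried either Cx3cr1CreERT, a tamoxifen-switched Cre recombinase driven by the promoter of Cx3cr1 (a chemokine receptor of microglia, monocytes and some NK cells), or Cx3cr1CreERT-ROSA-iDTR, which adds a Cre-dependent diphtheria toxin receptor. Mice of both genotypes received tamoxifen and, after a pause of 1 month, diphtheria toxin, so the controls carried Cre and both drugs. Naive brains came from mice without tumours. The other brains, and the blood, came from mice bearing metastases that had grown for about 2 weeks after E0771 cells, a mammary cancer line of mice, were given through the carotid artery. A sample was 1 brain hemisphere or peripheral blood, the brain cells had been enriched on a Percoll gradient, and the submitters state that microglia remained in depleted samples.

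The annotation tied cells to an arm in the naive brain (785 cells labelled control, 1868 labelled depleted) and in the blood (1371 and 1553). A further 5933 cells, from brains with metastases, formed a single pool with no arm. Each arm was thus 1 hashed sample per tissue, with no replicate, so no test was made. Depth is given in corrected UMIs (unique molecular identifiers, each counting a captured RNA molecule, after the authors' correction for depth), of which each arm and tissue had 7179776 to 17922978. The median per cell was 4847 to 9841 in the arms and 13647 in the brain with metastases. The correction levels depth: in the naive brain, cluster medians of 2436 to 157758 raw UMIs became 8618 to 10929. Similar corrected UMIs therefore do not show similar raw depth. Of the cells of each sample, 17.1% to 34.4% had a barcode that also appeared in another matrix. Cx3cr1 stood against the arm labels, at 4.40 corrected UMIs per 10000 in the naive brain sample labelled depleted and 0.768 in the one labelled control, with 2.26 and 1.08 in the blood. The arms are therefore named by their labels throughout.

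NK cells carry activating and inhibitory receptors in variable sets, and the balance of their signals decides whether a target is killed. Most members lie in the NK gene complex of mouse chromosome 6 and code for C-type lectin-like proteins. Ncr1 codes for NKp46, an immunoglobulin-like activating receptor that is carried by nearly all mouse NK cells. The Klra genes code for the Ly49 family, whose members bind MHC class I or related ligands and are each carried by part of the NK cells only.

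The Ly49 members were the part of the list whose behaviour differed from cell to cell, and their RefSeq promoters (GRCm38.p6, the assembly that mm10 names) are shown for that reason. Each line gives the 250 bases before the start of transcription on the strand of the gene, 5′ to 3′, and the capitals mark a stretch of 17 bases that the 3 promoters share. All 3 genes lie on the minus strand: Klra4 at chr6:130067272-130067521, Klra8 at chr6:130129899-130130148 and Klra9 at chr6:130193113-130193362.
Klra4: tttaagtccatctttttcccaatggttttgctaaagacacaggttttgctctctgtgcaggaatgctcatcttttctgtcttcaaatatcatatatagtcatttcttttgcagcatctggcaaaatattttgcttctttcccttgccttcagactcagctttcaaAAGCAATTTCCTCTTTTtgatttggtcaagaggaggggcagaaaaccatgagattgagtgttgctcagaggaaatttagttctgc
Klra8: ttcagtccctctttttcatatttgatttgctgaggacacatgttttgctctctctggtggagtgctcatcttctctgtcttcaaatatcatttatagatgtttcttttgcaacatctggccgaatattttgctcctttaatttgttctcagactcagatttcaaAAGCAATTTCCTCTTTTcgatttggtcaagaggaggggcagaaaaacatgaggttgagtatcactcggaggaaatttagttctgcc
Klra9: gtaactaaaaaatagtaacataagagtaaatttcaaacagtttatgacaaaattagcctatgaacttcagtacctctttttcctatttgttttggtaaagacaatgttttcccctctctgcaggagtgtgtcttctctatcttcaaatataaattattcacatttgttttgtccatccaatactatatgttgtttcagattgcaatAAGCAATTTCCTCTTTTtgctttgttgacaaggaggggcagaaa

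The promoters of Klra4 (Ly49D) and Klra8 (Ly49H), both activating receptors, were identical in 212 of 251 aligned columns (84.5%). Klra9 (Ly49I), an inhibitory receptor, matched Klra4 in 48.3% and Klra8 in 48.6% of 317 columns. Because the Ly49 transcripts are similar too, and how reads shared by several genes were counted is not given in the sources used here, the values of these 3 genes are uncertain to the extent that reads were split between them.

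Of the 8 members, 7 had a promoter in the RefSeq table, with 10 annotated starts. Klrd1 was not matched. The core letters bound by RUNX factors, TGTGGT on either strand, were in 5 of the 10 member promoters (of Klrb1c, Klre1, Klrk1 and Ncr1) and in 14.1% of all 32851 promoters of that length. Among the 5 are both Ncr1 promoters, chr7:4337465-4337714 and chr7:4337474-4337723, which overlap and hold the same matches. AGGTGT, searched for T-box factors, was in 0 of 10 against 11.8% of all. TTCNNNGAA, searched for STAT factors, was in 0 of 10 against 7.02%, and AGGAAG, searched for ETS factors, in 2 of 10 against 29.5%. The promoter of Ncr1 (chr7:4337465-4337714, plus strand) is shown with its matches to the RUNX core in capitals, on both strands. A match of letters is a description of the sequence and not a binding site.
Ncr1: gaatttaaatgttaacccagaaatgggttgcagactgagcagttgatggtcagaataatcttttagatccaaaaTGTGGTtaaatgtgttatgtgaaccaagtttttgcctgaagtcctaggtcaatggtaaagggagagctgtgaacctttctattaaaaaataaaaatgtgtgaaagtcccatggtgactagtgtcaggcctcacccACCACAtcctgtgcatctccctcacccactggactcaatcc

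Antibodies to the proteins of Klrb1c (NK1.1) and Ncr1 (CD335) were in the surface pool. Their tags are shown since a gate of the annotation is named for NK1.1, the product of a member.
NK1.1 tag: gtaacattactcgtc
CD335 tag: ccctttcacctcgaa

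The gates of the naive brain, however, followed RNA. All 155 cells of its NK gate had a UMI of Klrb1c, while 0 of the 275 cells of its CD3+ gates did, and all 275 of those had at least 2 UMIs of Cd3e, a T cell receptor subunit. In the NK gate 51 cells (32.9%) also had Cd3e. In the blood the gates did not follow these RNAs: Klrb1c was found in 10 of the 198 cells of the NK1.1+ gate (5.05%) and Cd3e in 42.9% of the CD3+ cells. Klrb1c in the naive brain gates is therefore fixed by the gate and is given as a description, and the clusters served as a second way to find the cells. Those of the naive brain and blood are the authors', and the genes that made them are not given in the sources used here. Those of the brain with metastases were made here without the NK receptor genes. All were named from markers that include none of the 8 members.

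In the naive brain, 146 cells formed the NK-like cluster (36 in the sample labelled control, 110 in the one labelled depleted). Of 12 NK markers, 11 were 2 fold or more higher in it than in all other cells of the matrix. In the T-like cluster 9 were, with 12 T cell markers beside 1 in the NK-like cluster. The NK-like cluster was led by granzymes, Xcl1 and Il2rb. Levels are given as CP10k, the corrected UMIs of a gene per 10000 summed over the cells of a class. Ncr1 stood at 5.43 CP10k in the cells labelled control and 6.14 in those labelled depleted, and 91.1% of the cluster had a UMI of it (exact 95% interval 85.3% to 95.2%, which, as for all shares here, covers counting error only). Klrb1c, the NK1.1 antigen, was at 5.09 and 4.37 CP10k, in 89.7% of cells. Klre1, a lectin-like receptor that pairs with Klri1 and Klri2, was at 6.56 and 6.27 CP10k, in 93.2%. Klrk1 (NKG2D), which binds stress-induced ligands, was at 6.59 and 7.72 CP10k, in 94.5%. Klrd1 (CD94), which pairs with the NKG2 proteins to bind Qa-1, was at 8.99 and 10.4 CP10k, in 99.3%. These 5 genes were found in most cells of the cluster under both labels.

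The Ly49 members were found in fewer cells. Klra4 had a UMI in 31 of 146 NK-like cells (21.2%, 14.9% to 28.8%), Klra8 in 22 (15.1%, 9.69% to 21.9%) and Klra9 in 73 (50.0%, 41.6% to 58.4%). Where present they were not scarce: a cell with Klra4 held 9.36 corrected UMIs of it on average, a cell with Klra8 5.77 and a cell with Klra9 9.90, beside 5.93 for Ncr1. The low class means of Klra4 (2.19 CP10k) and Klra8 (0.961 CP10k) thus came from a minority of cells with several molecules each.

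For background, the microglia-like cluster, which should lack these receptors, had a median of 10293 corrected UMIs per cell against 8869 in the NK-like cluster. In it Ncr1 was found in 2.56% of cells, Klrb1c in 3.42%, Klra4 in 0.244%, Klra8 in 0.488%, Klra9 in 1.95%, Klre1 in 4.15%, Klrk1 in 9.27% and Klrd1 in 9.02%. Every member was above that share in the NK-like cluster. Microglia were not the highest outside NK and T cells. A monocyte- and macrophage-like cluster of 283 cells had any member in 56.2%, with Klrd1 at 1.47 CP10k. Of those cells, 62.2% had shared barcodes. The T-like cluster had any member in 60.1% of 499 cells.

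**Figure D1:**
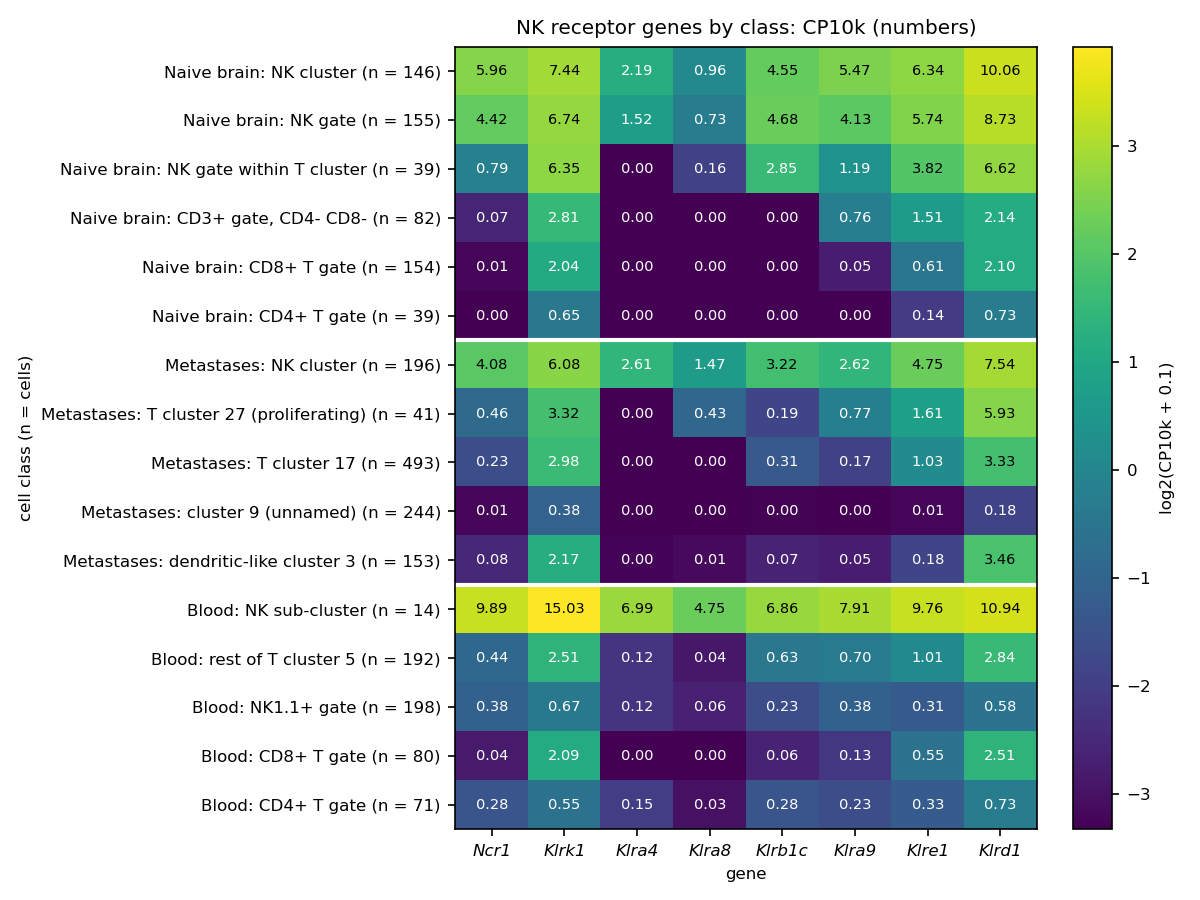
CP10k of the 8 members (columns) in classes of NK, T and 2 other kinds of cells (rows, with the number of cells), printed in each field and coloured by log2(CP10k + 0.1); white lines part the naive brain, the metastatic brain and the blood, whose matrices were normalized separately. The NK clusters and the NK sub-cluster of the blood are high for all members. Klrk1 and Klrd1 reach above 2 CP10k in the CD8+ T gates, and the NK1.1+ gate of the blood stays at or below 0.67.

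Between the NK gate of the naive brain (155 cells) and its CD3+ gates (275 cells), all 8 members were 2 fold or more higher in the NK gate, as were 3.39% of the 2980 measured genes. Leaving out Klrb1c, on which the gate rests, 7 of 7 were. The cells were still split by Klrb1c, so T-like cells with its RNA, which held more of other members, were missing from the CD3+ gates. The counts and bounds here are thus against CD3+ cells without Klrb1c RNA. The median log2 ratio of all 8, taken on CP10k plus 0.1, was 3.32, and 3.05 without Klrb1c, beside 0.06 for all measured genes. Ncr1 was at 4.42 CP10k in the NK gate and 0.0236 in the CD3+ gates, beside 0.136 in the T-like cluster described below. Klra4 (1.52 CP10k) and Klra8 (0.729) had no UMI in the CD3+ cells, which allows up to 1.09% of those cells to hold one, and were at least 129-fold and 61.7-fold higher against a floor of 3 UMIs over the CD3+ group. With Klra4, Klra8 and Klrb1c at their bounds, the median of all 8 was 4.39. Klra9 had a log2 ratio of 3.59, Klre1 of 2.68, Klrd1 of 2.13 and Klrk1 of 1.65. The last 3 were the members found most often in T-like cells.

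The T-like cluster of the naive brain had 499 cells and 8938 corrected UMIs per cell at the median. Klrk1, which acts as a costimulatory receptor on CD8 T cells, was at 2.55 CP10k and in 47.5% of these cells. Klrd1 was at 2.21 CP10k and in 48.9%, and Klre1 at 0.978 CP10k and in 22.0%. Ncr1 was found in 3.81%, Klra9 in 8.02%, Klrb1c in 59 cells, and Klra4 and Klra8 in 1 cell each. The shares of Klra4 and Klra8 did not exceed those of microglia.

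Within the CD3+ gates of the naive brain, CD8+ cells (154) carried more of these 3 than CD4+ cells (39). Klrk1 was at 2.04 against 0.649 CP10k, Klrd1 at 2.10 against 0.733 and Klre1 at 0.612 against 0.141, which gave 3 of 3 measured members 2 fold or more higher, beside 2.89% of 2975 measured genes. In the blood 2 of 3 were, beside 2.23% of 3356 genes: Klrk1 at 2.09 in CD8+ (80 cells) against 0.555 CP10k in CD4+ cells (71) and Klrd1 at 2.51 against 0.731, while Klre1, at 0.554 against 0.328, stayed short of 2 fold. These blood gates were mixed: 49 of the 80 CD8+ and 40 of the 71 CD4+ cells lay in the T-like cluster, and 26 and 22 in the microglia-like cluster. With a pseudocount of 1 CP10k no member passed 2 fold in the naive brain and 1 did in the blood, and without the shared barcodes 1 did in the blood.

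The T-like cells that did have Klrb1c carried other members with it. In the naive brain 59 of the 499 T-like cells had a UMI of Klrb1c. They had a median of 9102 corrected UMIs against 8931 in the 440 without, and Cd3e in 91.5% against 92.7%. Raw depth was not split this way. Within the T-like cluster, the 39 cells of the NK gate, all with Klrb1c, had a median of 7890 raw UMIs. The whole cluster had 6534. Ncr1 was in 18 of the 59 (30.5%, 19.2% to 43.9%) and in 1 of the 440 (0.227%). Klre1 was in 81.4% against 14.1%, at 3.61 against 0.612 CP10k. Klrk1 was at 6.33 against 2.02 CP10k and Klrd1 at 6.24 against 1.65. Klra9 was in 25.4% against 5.68%, while Klra4 was found in 1 of the 59 cells and none of the 440. Some genes of NK cells outside the list moved with them. Fcer1g was at 10.8 against 2.07 CP10k, Tyrobp at 4.93 against 1.85 and the chemokine Xcl1 at 11.4 against 3.23. Tyrobp was in 78.0% against 71.8% of cells, a smaller difference than in its level. Klrb1a was in 9 of the 59 cells and none of the 440. Cd8a, a subunit of the CD8 coreceptor, went the other way, in 33.9% (22.1% to 47.4%) against 62.3% (57.6% to 66.8%). The granzyme Gzma, a leading gene of the NK-like cluster, was no more frequent, in 11.86% against 12.05%, at 2.88 against 1.51 CP10k.

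The brain with metastases showed these differences too, in other cells. Of its 534 T-like cells, 82 had a UMI of Klrb1c. Ncr1 was in 41.5% of them (30.7% to 52.9%) and in 1.11% of the others. Klre1 was in 81.7% against 23.7%, Klrk1 at 4.86 against 2.67 CP10k and Klrd1 at 5.54 against 3.19. Fcer1g was at 9.24 against 1.54 CP10k, Tyrobp at 4.04 against 1.096 and Xcl1 at 12.01 against 3.53. Cd8a was in 30.5% against 76.8%. Shared barcodes were more frequent in the cells with Klrb1c, at 16 of 59 against 52 of 440 in the naive brain and 15 of 82 against 44 of 452 in the brain with metastases. Without them Ncr1 was still in 23.3% of 43 cells against 0 of 388 (which allows up to 0.773%) and in 35.8% of 67 against 0.980% of 408. Klrk1 was at 6.73 against 2.07 and at 4.80 against 2.63 CP10k. Gzma was then in 6.98% against 12.1% of cells and in 11.9% against 23.3%. Droplets holding an NK and a T cell were not called, and their part in these cells was not tested.

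**Figure D2:**
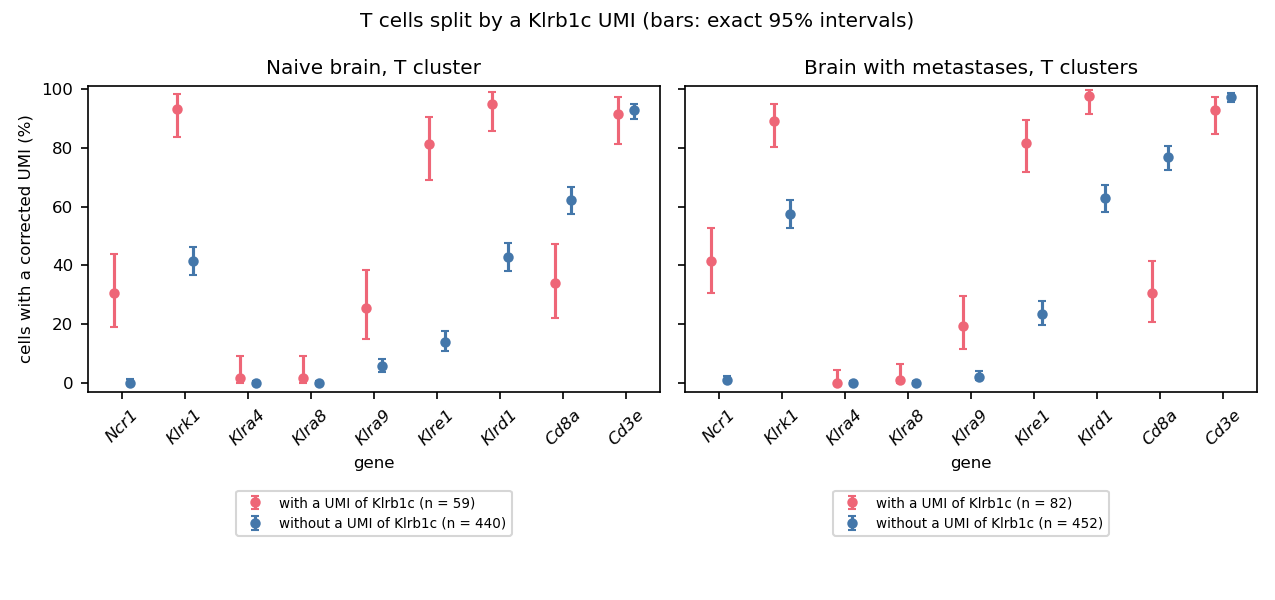
Share of T-like cells (y axis, %) with a corrected UMI of each gene (x axis), for cells with (red) and without (blue) a UMI of Klrb1c, in the naive brain (left; 59 and 440 cells) and the brain with metastases (right; 82 and 452). Points are shares and bars exact 95% intervals; Ncr1, Klre1, Klrk1 and Klrd1 are more frequent in red, Cd8a in blue, and Cd3e lies above 90% in all 4 groups.

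In the NK gate itself 102 cells lay in the NK-like cluster, 39 in the T-like cluster and 14 elsewhere. The 39 had Cd3e at 5.53 CP10k, beside 0.355 in the 102. Klrk1 was nearly as high in these 39 as in the 102 (6.35 and 7.20 CP10k), and Klrd1 stood at 6.62 and 10.4. Ncr1 (0.786 and 6.29 CP10k), Klra9 (1.19 and 5.59) and Klra4 (0 and 2.36) were lower in the 39. The gate thus joined cells of 2 clusters that were closer in Klrk1 than in Ncr1 or the Ly49 members.

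In the brain with metastases, 196 cells formed the NK-like cluster and 534 the T-like clusters, with medians of 12795 and 13014 corrected UMIs. Ncr1 was at 4.08 CP10k in NK-like and 0.252 in T-like cells, Klrb1c at 3.22 and 0.296, Klra8 at 1.47 and 0.0357, Klra9 at 2.62 and 0.219, Klre1 at 4.75 and 1.08, Klrk1 at 6.08 and 3.00 and Klrd1 at 7.54 and 3.55. Klra4 was at 2.61 in NK-like cells and had no UMI in the 534 T-like cells, which made it at least 609-fold higher against a floor of 3 UMIs. All 8 members were higher in the NK-like cells and 7 passed 2 fold, beside 3.04% of 2798 measured genes. Klrk1, with a log2 ratio of 0.99, was the member that fell short.

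The T-like cells of this brain fell into 2 clusters. Klrd1 stood at 5.93 CP10k in the 41 cells led by proliferation genes such as Mki67 and at 3.33 in the other 493, and Klrk1 at 3.32 and 2.98. Outside NK and T cells, a dendritic-like cluster of 153 cells had Klrd1 at 3.46 and Klrk1 at 2.17 CP10k with Ncr1 at 0.08. An unnamed cluster of 244 cells led by Tnfrsf4, Il17a and Trdc, with 11 T cell markers, had Klrk1 at 0.38 and Klrd1 at 0.18 CP10k. The microglia-like cells had Klrk1 in 8.87% and Klrd1 in 8.72% of 665 cells. Their clusters differed, with any member in 38.2% of 173 cells and 6.71% of 492. A monocyte- and macrophage-like cluster of 660 cells had any member in 49.4%, so microglia are not the highest background in this matrix. Of the 534 T-like cells, 120 had no member.

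Against the naive brain, the NK-like cells of the brain with metastases had 1 of 8 members past 2 fold, beside 2.21% of 2946 measured genes in either direction. That was Klra9, at 2.62 CP10k against 5.47, a log2 ratio of −1.03. A pseudocount of 1 CP10k ended this call, and so did shares of cells after every cell was thinned to 2000 UMIs, where Klra9 was in 28.1% of 196 cells (21.9% to 34.9%) against 41.1% of 146 (33.0% to 49.5%). Klra4 (2.61 and 2.19 CP10k) and Klra8 (1.47 and 0.961) were the 2 members on the higher side in the brain with metastases. Ncr1, Klrb1c, Klre1, Klrk1 and Klrd1 had log2 ratios between −0.54 and −0.29. The 2 matrices were normalized separately, and the pool of the brain with metastases holds both arms.

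Listed genes of NK maturation and site were read in the same clusters. Of the other lists, 0 of 14 measured other NK receptor genes and 0 of 8 adaptors and kinases passed 2 fold. Of the 9 measured genes of maturation and tissue residence that are reported here, 1 was 2 fold or more higher in the brain with metastases and 3 lower, beside 2.21% of all measured genes in either direction. Cxcr6, a chemokine receptor of resident lymphocytes, was at 1.22 CP10k in the brain with metastases against 3.76, Itga1, which marks resident NK and innate lymphoid cells, at 0.821 against 1.95, and the surface protein gene Cd7 at 3.22 against 8.96. Emb, which encodes the adhesion protein embigin, was at 4.20 against 1.67 CP10k. Of 13 measured transcription factors 1 was higher, Klf2, at 8.91 against 3.32 CP10k, and 1 lower, Tox, at 0.465 against 1.07.

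**Figure D3:**
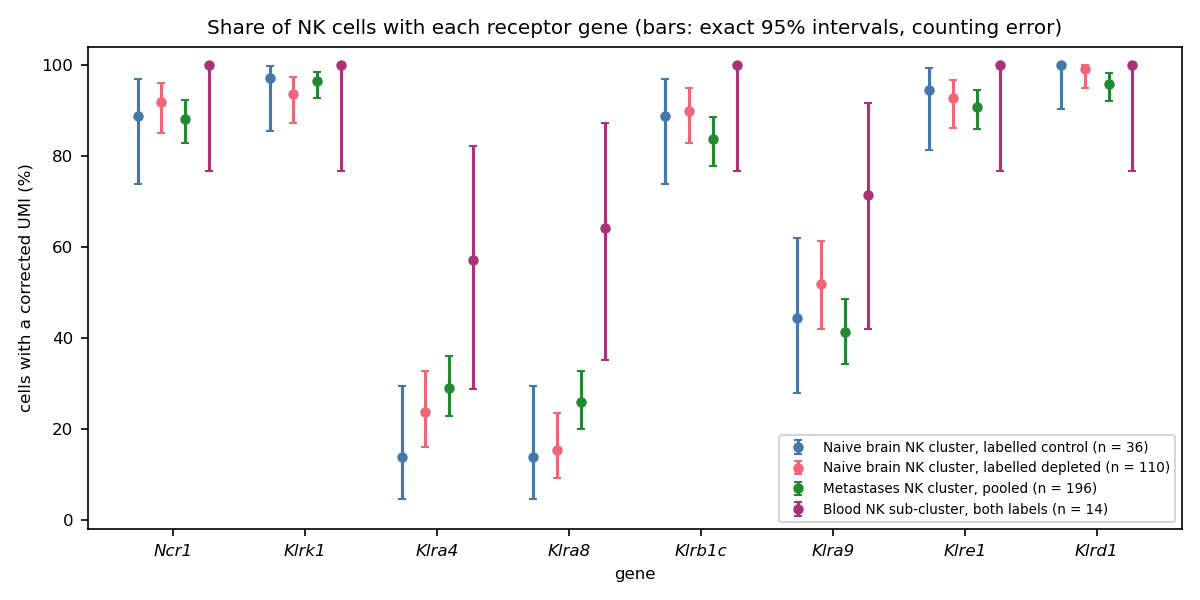
Share of NK-like cells (y axis, %) with a corrected UMI of each member (x axis) in the naive brain by arm label (blue and red), the brain with metastases (green) and the NK sub-cluster of the blood (purple), with exact 95% intervals for counting error and the number of cells in the key. Ncr1, Klrk1, Klrb1c, Klre1 and Klrd1 lie above 80% in every group and the Ly49 members lower, with wide bars for the 36 cells labelled control and the 14 of the blood.

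In the blood the NK1.1+ gate went against its label. Of its 198 cells, 103 (52.0%) lay in the microglia-like cluster and 37 in a tumour-like cluster, 30 were monocyte-like, 14 neutrophil-like and 13 in the T-like cluster. Of the same cells, 170 (85.9%) had barcodes shared with another matrix. P2ry12, a microglial receptor, was at 2.63 CP10k, the tumour keratin Krt8 at 1.18 and S100a8 of neutrophils at 77.0. Members stood between 0.0576 (Klra8) and 0.666 CP10k (Klrk1), and in the 185 gated cells outside the T-like cluster none exceeded 0.201 (Klrd1). Of the 8 members, 2 were measured against the CD3+ gates and neither was higher, beside 3.98% of 3489 genes that were 2 fold or more higher: Klrk1 was at 0.666 against 1.20 CP10k and Klrd1 at 0.576 against 1.26. Without shared barcodes (28 cells against 126) 5 members were 2 fold or more higher in the NK1.1+ gate, beside 13.0% of 3399 genes, and Klrk1 was at 1.48 against 0.497 CP10k. Each member was then found in 2 of the 28 cells. The 8 members were all 2 fold or more higher in the naive brain gate than in this one, beside 33.8% of 3794 genes in either direction; given what the blood gate held, nothing is read from this count.

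**Figure D4:**
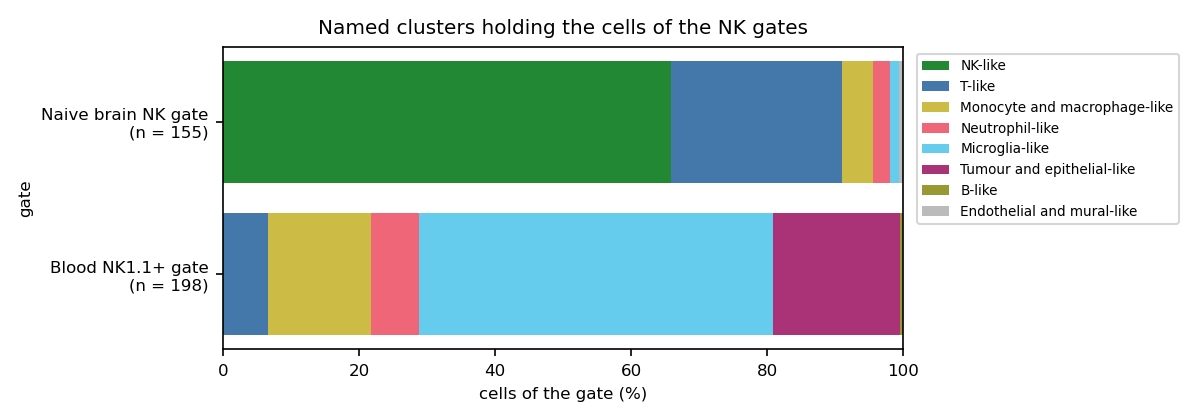
Share of the cells of each NK gate (x axis, %) that lay in clusters of each name (colours), for the naive brain (155 cells) and the blood (198 cells). The naive brain gate is mostly NK-like with 25.2% T-like cells, while 52.0% of the blood gate is microglia-like and no cluster of the blood carries the NK name.

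Cells with the members were found in the blood outside that gate. Ncr1 had a UMI in 51 blood cells, of which 9 lay in the NK1.1+ gate, 14 in CD3+ gates and 28 in neither. When the T-like cluster of the blood (206 cells) was clustered again without the receptor genes, 14 cells formed an NK-like sub-cluster. In it 11 of 12 NK markers and 0 T cell markers were 2 fold or more higher than in the rest of the T-like cluster. A count of 0 by this rule does not show T cell RNA to be absent. The same 14 cells formed it at both resolutions tried. Only 2 of them were in the NK1.1+ gate, 6 were gated as Ly6CLow, 3 as unidentified, 2 as B220+ and 1 as CD3+. A single barcode was shared with another matrix. This step was added after the gate had been seen to go against its label.

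All 14 cells had Ncr1 (9.89 CP10k), Klrb1c (6.86), Klre1 (9.76), Klrk1 (15.03) and Klrd1 (10.9). Klra9 was in 10 of 14 cells (7.91 CP10k), Klra8 in 9 (64.3%, 35.1% to 87.2%; 4.75 CP10k) and Klra4 in 8 (57.1%, 28.9% to 82.3%; 6.99 CP10k). For background, the neutrophil-like cells of the blood, with a median of 4500 corrected UMIs against 5538 in the sub-cluster, had any member in 2.48% of 966 cells. A monocyte-like cluster of 355 cells (median 5986) had any member in 12.4%, Klrk1 and Klrd1 in 6.48% each and Ncr1 in 0.282%. The microglia-like cluster (468 cells, median 6194, 82.7% of them with shared barcodes) had any member in 20.1%, Klrk1 in 14.7%, Klrd1 in 13.0% and Ncr1 in 3.42%. Every member was above these shares in the sub-cluster. In naive brain NK-like cells the intervals of Klra8 (9.69% to 21.9%) and Klra4 (14.9% to 28.8%) lay below those of the blood, for Klra4 by a small margin. How many of all measured genes part in this way was not computed. The intervals cover cells and not animals, so nothing is read from this. After thinning to 2000 UMIs Klra8 was in 50.0% (23.04% to 77.0%) of the 14 cells and 8.22% (4.32% to 13.9%) of the naive brain cells, and the intervals of Klra4 overlapped, at 42.9% (17.7% to 71.1%) and 17.8% (11.98% to 24.99%). Against the 14 cells, the NK-like cluster of the naive brain had log2 ratios of −2.19 for Klra8, −1.63 for Klra4 and −1.005 for Klrk1, so that 3 of 8 members passed 2 fold, all lower in the brain, beside 23.3% of 3923 measured genes in either direction. The gates had put all 8 higher. Gzma was at 174 CP10k in the blood cells and Xcl1 at 1.98, against 20.8 and 22.97 in the naive brain. The 14 cells come from 8 cells labelled control and 6 labelled depleted, and the matrices were normalized separately. The blood came from mice with metastases and the naive brain from mice without tumours, so tissue and tumour cannot be told apart here.

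The arms were compared within a matrix. In the NK gate of the naive brain (34 cells labelled control, 121 labelled depleted) 5 members were higher and 3 lower under the depleted label. The 1 member past 2 fold was Klra8, at 0.523 CP10k labelled depleted against 1.48 labelled control, beside 3.02% of 3146 measured genes in either direction. In the NK-like cluster, a different set of cells, Klra8 was at 0.745 CP10k labelled depleted against 1.62 labelled control. There the share of cells did not follow, with 5 of 36 cells labelled control (13.9%) and 17 of 110 labelled depleted (15.5%). In that cluster the difference lay in the molecules per positive cell, with only 5 such cells labelled control. In the gate, thinned shares were 6.61% labelled depleted and 8.82% labelled control. Klra8 lost its call with a pseudocount of 1 CP10k and in thinned shares. Klra4 went the other way in the same cluster, at 1.22 CP10k in cells labelled control (5 of 36) and 2.52 in those labelled depleted (26 of 110), a log2 ratio of 0.99.

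The other members of that cluster were close between the labels, from −0.22 for Klrb1c to 0.35 for Klra9. NK-like cells made up 4.59% of the sample labelled control and 5.89% of the one labelled depleted, and T-like cells 7.52% and 23.6%. The T-like cells of the naive brain had Klrk1 at 2.27 and 2.59 CP10k, Klrd1 at 2.25 and 2.20 and Klre1 at 1.37 and 0.924, each pair in the order control, depleted. Ncr1 was in 0 of the 59 T-like cells labelled control and 19 of the 440 labelled depleted, and a count of 0 in 59 allows up to 5.08%, above the 4.32% of the others.

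In the NK1.1+ gate of the blood (88 cells labelled control, 110 labelled depleted) 1 of 4 measured members passed 2 fold, beside 2.92% of 3498 genes. Klra9 was at 0.742 CP10k labelled control and 0.0886 labelled depleted. With a pseudocount of 1 CP10k, or without the cells that had T cell receptor UMIs, no member passed. Without shared barcodes 5 members did, all higher under the depleted label, beside 31.2% of 3957 genes, and the log2 ratio of Klra9 turned from −2.16 to 1.25. Each member then rested on 1 cell with a UMI per arm, of 15 labelled control and 13 labelled depleted. Since most of that gate is not NK-like, the 14 cells of the sub-cluster bear more directly on NK cells: there Klra9 was at 6.59 CP10k labelled control and 9.60 labelled depleted, Ncr1 at 8.94 and 11.1, Klrk1 at 15.5 and 14.4, and Klrd1 at 13.6 and 7.50. The 1 member past 2 fold there was Klra4, at 3.53 and 11.4 CP10k, found in 4 of 8 and 4 of 6 cells. With 8 and 6 cells these values rest on few molecules.

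Members were found together in the same cells. In the naive brain 96.6% of NK-like cells had 4 or more of the 8 members (median 6), against 13.0% of T-like cells, of which 199 of 499 had none. In the brain with metastases 94.9% of NK-like and 15.4% of T-like cells had 4 or more. Of the Ly49 members, naive brain NK-like cells had none in 51 cells (34.9%), 1 in 74 (50.7%), 2 in 11 and 3 in 10. NK-like cells of the brain with metastases had none in 77, 1 in 66, 2 in 36 and 3 in 17. No T-like cell of either brain had more than 1.

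The pair of Klra4 and Klra8 went together from cell to cell. In the naive brain Klra4 was in 16 of the 22 NK-like cells with Klra8 (72.7%, 49.8% to 89.3%) and in 15 of the 124 without (12.1%, 6.93% to 19.2%). In the brain with metastases it was in 33 of 51 (64.7%, 50.1% to 77.6%) and 24 of 145 (16.6%, 10.9% to 23.6%). In the blood it was in 8 of 9 and 0 of 5, and after thinning to 2000 UMIs in 57.1% (18.4% to 90.1%) and 28.6% (3.67% to 71.0%), with intervals that overlapped. The intervals with and without Klra8 did not overlap in either brain.

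Klra9 showed no such link with Klra4: in the naive brain Klra4 was in 19.2% of cells with Klra9 and 23.3% of those without, and in the brain with metastases in 32.1% and 26.96%. Klra8 was in 15.1% of naive brain cells whether Klra9 was present or not. In the brain with metastases it was in 34.6% of cells with Klra9 (24.3% to 46.0%), and the interval of those without (13.1% to 28.5%) overlapped. After thinning, Klra4 was in 83.3% of cells with Klra8 against 11.9% without in the naive brain, and in 52.2% against 17.3% in the brain with metastases. Without the shared barcodes the values were 71.4% against 11.6% and 65.3% against 16.7%. Reads shared between Klra4 and Klra8 would also place them in the same cells, and their part was not tested.

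**Figure D5:**
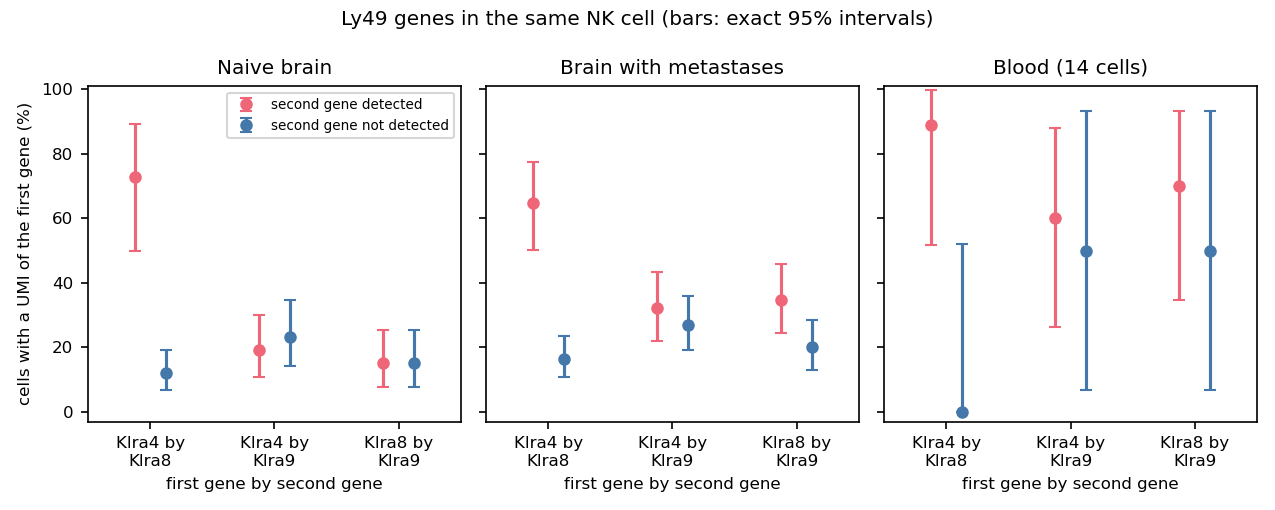
Share of NK-like cells (y axis, %) with a UMI of the first Ly49 gene of each pair (x axis), among cells with (red) and without (blue) a UMI of the second, in the naive brain (146 cells), the brain with metastases (196) and the blood (14), with exact 95% intervals. Klra4 and Klra8 part clearly in both brains, at 72.7% against 12.1% and 64.7% against 16.6%, while the bars of the pairs with Klra9 overlap.

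Other receptor genes were also higher in NK cells. Of 14 other measured NK receptor genes, 10 were 2 fold or more higher in the NK gate of the naive brain than in its CD3+ gates and none lower, beside 3.39% of all measured genes. In the brain with metastases 8 of 13 were higher in the NK-like than in the T-like cells and none lower, beside 3.04%. There Klrb1b, a relative of Klrb1c, was at 1.45 against 0.0500 CP10k, Klri2, a partner of Klre1, at 1.12 against 0.0286, and Klra7 (Ly49G2), an inhibitory Ly49, at 2.37 against 0.555. Klrc1 (NKG2A), the partner of Klrd1, was at 2.06 in NK-like and 1.55 in T-like cells, with a log2 ratio of 0.39.

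The adaptors of these receptors differed among themselves. Tyrobp (DAP12), which carries the signal of Klra4 and Klra8, was at 21.2 against 1.55 CP10k in NK-like and T-like cells of the brain with metastases, and Fcer1g, which serves Ncr1, at 25.8 against 2.73. Hcst (DAP10), which serves Klrk1, was at 4.29 against 5.81. Of 8 measured adaptors and kinases in this brain 2 were 2 fold or more higher, Tyrobp and Fcer1g, and none lower. In the gates of the naive brain 2 of 9 were higher, the same 2 genes, and 2 lower: Cd247, which codes for the CD3 zeta chain, at 0.625 against 1.37 CP10k and Sh2d1a, an adaptor of SLAM receptors, at 0.736 against 1.58. Of 13 measured transcription factors of NK and innate lymphoid cells 3 were higher in the NK-like cells of the brain with metastases, Eomes, Nfil3 and Klf2, and none lower. In the naive brain 1 of 13 was higher, Tbx21, at 0.966 against 0.343 CP10k, and none lower. The shares of all measured genes that were higher are again 3.04% and 3.39%.

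Over the 43 clusters of at least 30 cells in the 3 matrices, the genes whose CP10k followed the mean of the members most closely, among 8448, were Prf1 (Pearson r 0.964), Klra7 (0.958), Xcl1 (0.951), Tbx21 (0.949) and Gzma (0.947). Among members, Ncr1 was most like Klra9 (0.977) and Klrk1 most like Klrd1 (0.975). These coefficients describe clusters that share libraries and depth, and they are given without a test.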

How the data were processed

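The labels give 1 droplet pool and 10x chemistry (3' v3). According to the submitters' processing notes, the software was Cell Ranger 3.1 and Seurat 3.1.1 on mm10. The authors deposited the natural log of 1 plus a corrected UMI count, normalized separately in each of 3 matrices. Undoing the log gave whole numbers within 1e-06 for 100% of values above 0. These corrected UMIs are not raw counts, so no count model was fitted. Raw UMI counts, scores, clusters, gates and arms came from the deposited annotation tables, in which 64 columns of cell values were not used.

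The plan had taken the gates as drawn on surface protein. Those of the naive brain followed Klrb1c and Cd3e RNA, and the test was kept as planned with Klrb1c named as fixed by the gate.

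Each class was summed in corrected UMIs, then scaled to 10000 (CP10k). Log2 ratios used a pseudocount of 0.1 CP10k, a gene was measured at 0.5 CP10k or more on at least 1 side, and past 2 fold is a description, since each side is 1 hashed sample or pool. Shares carry exact Clopper-Pearson 95% intervals. A count of 0 allows up to 3 of the total. Clusters were named from marker lists without the members, with at least 3 markers. The brain with metastases was clustered with scanpy 1.11.5 (2000 variable genes, 30 components, 20 neighbours, Leiden resolution 1.0, with 0.5 and 2.0 as alternatives), leaving out NK receptor genes, and the T-like blood cluster again with 1000 genes, 10 components and 15 neighbours at resolutions 0.5 and 1.0. Doublets were not called. The calculation was checked on simulated UMIs. The members and gene lists were chosen with earlier results of these data known, and all 8 members and the listed genes could be named. Alternatives were another pseudocount, minimum, class, annotation, thinning to 2000 UMIs and leaving out shared barcodes. Thinning acted on corrected UMIs and so does not level raw depth. One gene of the maturation list is not reported here, and the count for that list leaves it out.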

Additional observations from a re-analysis of the deposited data

Results flagged for a closer look

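The log2 ratio of Klra9 between the sample labelled depleted and the one labelled control was −2.16 in the NK1.1+ gate of the blood (0.0886 against 0.742 CP10k) and 0.12 in the NK gate of the naive brain (4.21 against 3.86 CP10k), so these 2 gates went opposite ways. Of the blood gate 85.9% of cells had shared barcodes, and without them (13 cells labelled depleted, 15 labelled control) Klra9 turned to 1.25, the direction of the naive brain, with 1 cell with a UMI in each arm. In the NK sub-cluster of the blood it was 0.54. With 1 hashed sample per arm and tissue the difference was not tested. Most cells of the blood gate lay outside the T-like cluster.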

How the results depend on the processing

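Of 61 counts of members recomputed under another setting, 46 stayed within 1.5 times their main value and 15 moved. With a pseudocount of 1 CP10k the counts became 0 for CD8+ over CD4+ T cells of the naive brain (main 3), 1 for those of the blood (main 2), 0 between arms in the naive brain gate (main 1), 0 between arms in the blood gate (main 1) and 0 between the 2 brains (main 1). Without shared barcodes 5 members were higher in the blood NK1.1+ gate than in CD3+ gates (main 0), 1 in CD8+ over CD4+ T cells of the blood (main 2), and 5 were past 2 fold between arms of the blood gate (main 1), where Klra9 turned to 1.25 from −2.16. In shares thinned to 2000 UMIs the counts were 1 for the blood gate over CD3+ gates, 0 between arms of the naive brain gate, 5 between arms of the blood gate and 0 between the brains. Blood gate cells without T cell receptor UMIs gave 0 between arms. The cause of these moves was not tested.

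The 14 cells of the blood NK sub-cluster were an alternative chosen after seeing the data. With them 8 members were 2 fold or more higher than in the CD3+ gates, beside 22.4% of 4268 measured genes. Those gates were mixed. In the T-like cluster lay 49 of 80 CD8+ cells, 40 of 71 CD4+ cells and 37 of the 178 other CD3+ cells. Of the 14 cells, 1 was also gated as CD3+ and so counted on both sides. Klrd1 was at 3.02 (main −1.01). Against the naive brain 3 members were past 2 fold, beside 23.3% of 3923 genes in either direction. There all 8 log2 ratios turned: Ncr1 −0.72, Klrb1c −0.58, Klra4 −1.63, Klra8 −2.19, Klra9 −0.52, Klre1 −0.61, Klrk1 −1.005 and Klrd1 −0.12. Of 295 ratios of single members 259 kept their direction and call, 26 moved and 10 reversed. The count of 8 for the NK gate over CD3+ gates of the naive brain and of 7 in the brain with metastases stayed within 1.5 times under every setting run. The NK gate of the naive brain without T cell receptor UMIs was not run (2 cells), nor were classes by cluster in the blood, which has no NK-named cluster. No paired analysis was possible because the samples carry no replicate numbers. Depth limits the blood most, at 4847 and 5449 corrected UMIs per cell.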
